A study of Mus musculus with 360 samples.

Results

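Slc26a4, which encodes pendrin, is 1 of the 48440 genes in a matrix of UMI (unique molecular identifier) counts from 360 single cells of the adult mouse cochlea, and its row was taken by gene symbol. GAP mice carried Fbxo2CreERT2, a tamoxifen-inducible Cre driven from the Fbxo2 locus, the Rosa26-tdTomato reporter, and a Rosa26-GAP allele that adds Gfi1, Atoh1 and Pou4f3, the transcription factors of hair cell fate. Control mice carried Fbxo2CreERT2 and Rosa26-tdTomato, so Cre and reporter were common to both genotypes. All mice received tamoxifen at 3 weeks of age and were dissociated with papain at 5 weeks, and cells were sorted on tdTomato and EpCAM, an epithelial surface protein, into multiwell plates for SMART-MATQ libraries. Each genotype gave 180 cells. Because no animal is named in the labels, a genotype is treated as 1 sample. No test was made, and every interval below covers counting error only.

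Pendrin is an anion exchanger of the apical membrane that trades chloride for bicarbonate and also carries iodide. In the cochlea it is known from outer sulcus and root cells and from spindle-shaped cells at the edge of the stria vascularis, where it releases bicarbonate into endolymph. In people, loss of SLC26A4 causes Pendred syndrome and deafness with an enlarged vestibular aqueduct.

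Slc26a4 (ENSMUSG00000020651.7) lies on mm10 chromosome 12, chr12:31519827-31559969, on the minus strand, with 21 exons in the principal GENCODE transcript and 3109 exonic bases over all transcripts. No other gene of the matrix overlaps it. The 250 bases before the RefSeq start (GRCm38.p6, chr12:31559985-31560234, minus strand) are shown because the levels below concern how much of this transcript each cell held. Capitals mark a TATA box.

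Slc26a4 promoter: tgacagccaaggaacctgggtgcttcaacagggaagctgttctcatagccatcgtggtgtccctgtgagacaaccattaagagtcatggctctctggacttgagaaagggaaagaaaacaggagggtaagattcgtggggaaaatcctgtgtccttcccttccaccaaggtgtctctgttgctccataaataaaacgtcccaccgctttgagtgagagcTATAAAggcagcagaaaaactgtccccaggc

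The letters of 3 motifs were searched for on both strands. TATAAA occurred once, 31 bases before the start, and 12.97% of 27025 RefSeq promoters of this length hold it. CAGCTG, an E-box of the kind that basic helix-loop-helix factors such as Atoh1 can bind, was not in this window, and 12.8% of the promoters hold it. GTAAACA, a forkhead core, was not in it either, and 3.09% of the promoters hold it. Of the genes whose levels followed Slc26a4 most closely in control cells, described below, 19 had a promoter in the table, and 3, 4 and 1 of these held the TATA box, the E-box and the forkhead core. These matches describe letters and not binding.

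The GAP cells held 5366362 UMIs and the control cells 4001274, with medians of 28963 and 21280 UMIs per cell. Atoh1 had 4322 UMIs in GAP cells and 0 in control cells, Pou4f3 3130 and 0, and Gfi1 1092 and 1. Titles carry a letter whose meaning the labels do not give, with GAP cells in C (92) and D (88) and control cells in A (91) and B (89), so letter and genotype cannot be told apart. The authors' deposited annotation puts 341 cells in 9 named clusters and leaves out 19, of which 17 are GAP cells. The names do not always follow genotype: Reprogrammed Unknown 1 holds 13 GAP and 13 control cells, Reprogrammed Unknown 2 holds 10 GAP and 7 control cells, and 15 GAP cells lie in the 4 clusters whose names begin with WT. The clustering can have used Slc26a4, so levels by cluster are a description.

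Slc26a4 was lower in the GAP cells as a whole. It was at 299.8 CPM (summed UMIs scaled to counts per 10 to the power 6) in GAP cells (95% interval 285 to 315, 1609 UMIs) and at 883 CPM in control cells (854 to 913, 3533 UMIs), 2.94-fold lower in GAP (2.78 to 3.13). Per kilobase of exon this placed the gene at rank 366 in GAP cells and at rank 82 in control cells among 48058 genes with a length. It stood among the most abundant transcripts in control cells and lower, but still high, in GAP cells.

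The summed levels of the control letters were alike and those of the GAP letters were not. Slc26a4 was at 209 CPM in letter C (193 to 226) and 409 CPM in letter D (384 to 435), against 883 CPM in A (842 to 925) and 883 CPM in B (843 to 925). The level was lower in GAP in all 4 pairings of letters, by 4.22-fold for C over A or B and by 2.16-fold for D over A or B. C was 1.95-fold lower than D (1.77 to 2.16), while A over B was 0.999 (0.935 to 1.07). Single cells of the control letters were less alike, with medians of 546 CPM in A and 815 CPM in B. In A 59.3% of cells reached 300 CPM, and in B 71.9%. Depth did not move with the level: Spearman's rho between Slc26a4 CPM and total UMIs was -0.04 over the 180 GAP cells and 0.11 over the 180 control cells.

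Single cells of both genotypes overlapped over most of their ranges, and the highest cells were control cells. The lowest, median and highest GAP cells had 0, 63.1 and 2830 CPM, with quartiles at 0 and 425, against 0, 659 and 3985 CPM in control cells, with quartiles at 174 and 1199. No Slc26a4 UMI was found in 54 of 180 GAP cells and in 4 of 180 control cells. At the other end, 18 GAP cells and 63 control cells reached 1000 CPM. Of the GAP cells, 115 lay under the lower quartile of the control cells, 24 lay above the control median and 14 above the upper control quartile. The ranges overlap, and the GAP level rested on fewer cells: the tenth of cells richest in Slc26a4 gave 53.1% of its UMIs in GAP cells and 36.7% in control cells.

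**Figure D1:**
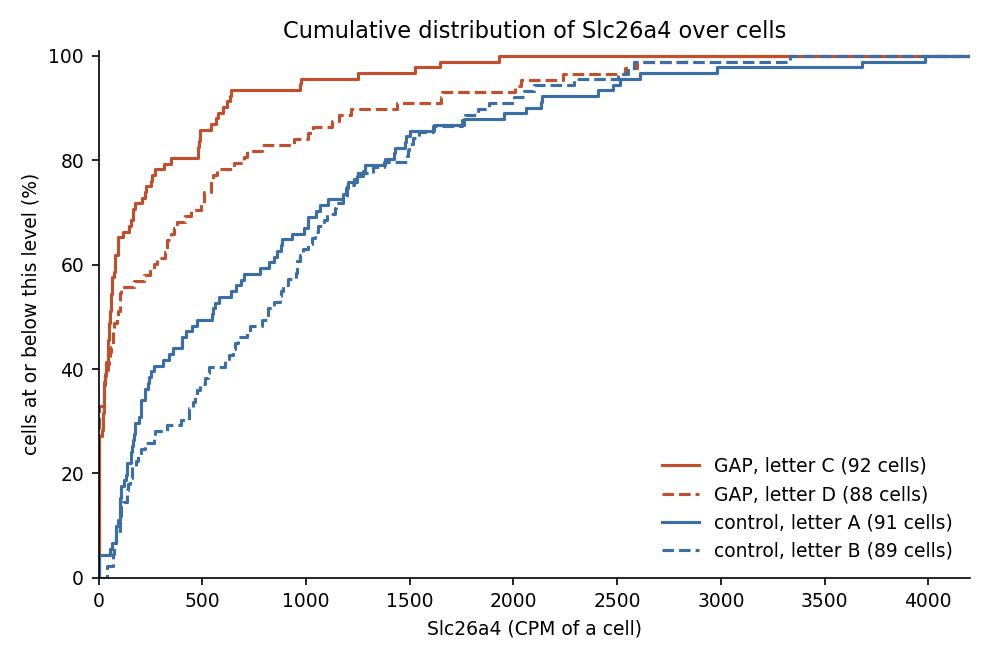
Cumulative share of cells (vertical axis, %) at or below a Slc26a4 level (horizontal axis, CPM of a cell) for GAP letters C and D and control letters A and B. The GAP curves start at 27.2% and 32.95% of cells at 0 CPM, against 4.396% in A and 0% in B, and letter D runs below letter C at higher levels.

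At 8000 UMIs per cell, a depth that left out 0 GAP and 3 control cells, 51.7% of GAP cells had a Slc26a4 UMI (44.1 to 59.2%, Clopper-Pearson, 180 cells), against 89.3% of control cells (83.7 to 93.4%, 177 cells). Without thinning the shares were 70% and 97.8%. Within GAP the letters were close in share, at 48.9% in C and 54.5% in D, although D had the higher level. The thinned counts had a variance 8.78 times their mean in GAP cells and 6.39 times in control cells, where counting error alone would give about 1.

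The authors' clusters ran over a wide range of Slc26a4. WT Cells 2 stood highest at 1369.6 CPM (1296 to 1447, 34 cells), followed by Reprogrammed Unknown 2 at 1037 (945 to 1135, 17 cells) and WT Cells 1 at 1014 (968 to 1061, 84 cells). WT Cells 3 was at 624 CPM (558 to 695, 22 cells). Reprogrammed Hair Cells was at 393 CPM (362 to 427, 51 cells), Reprogrammed Sup Cells 1 at 168 (149 to 188, 54 cells) and WT Supp Cells at 128 (99.0 to 164, 33 cells). At the bottom were Reprogrammed Unknown 1 at 75.9 CPM (56.7 to 99.5, 26 cells) and Reprogrammed Supp Cells 2 at 26.3 (12.04 to 49.97, 20 cells, 9 UMIs). The 19 cells with no cluster were at 255 CPM, and 1 of them, a letter D cell of 60218 UMIs, gave 121 of their 225 Slc26a4 UMIs.

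Neighbours in this order were often close. Reprogrammed Unknown 2 over WT Cells 1 was 1.02 (0.922 to 1.13), and Reprogrammed Sup Cells 1 over WT Supp Cells was 1.31 (0.998 to 1.74). The other 6 neighbouring pairs had ratios of 1.32 to 2.88 whose counting intervals left out 1. The quartiles of single cells overlapped in each of the 8 pairs, so no neighbour stood apart beyond the spread over cells.

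**Figure D2:**
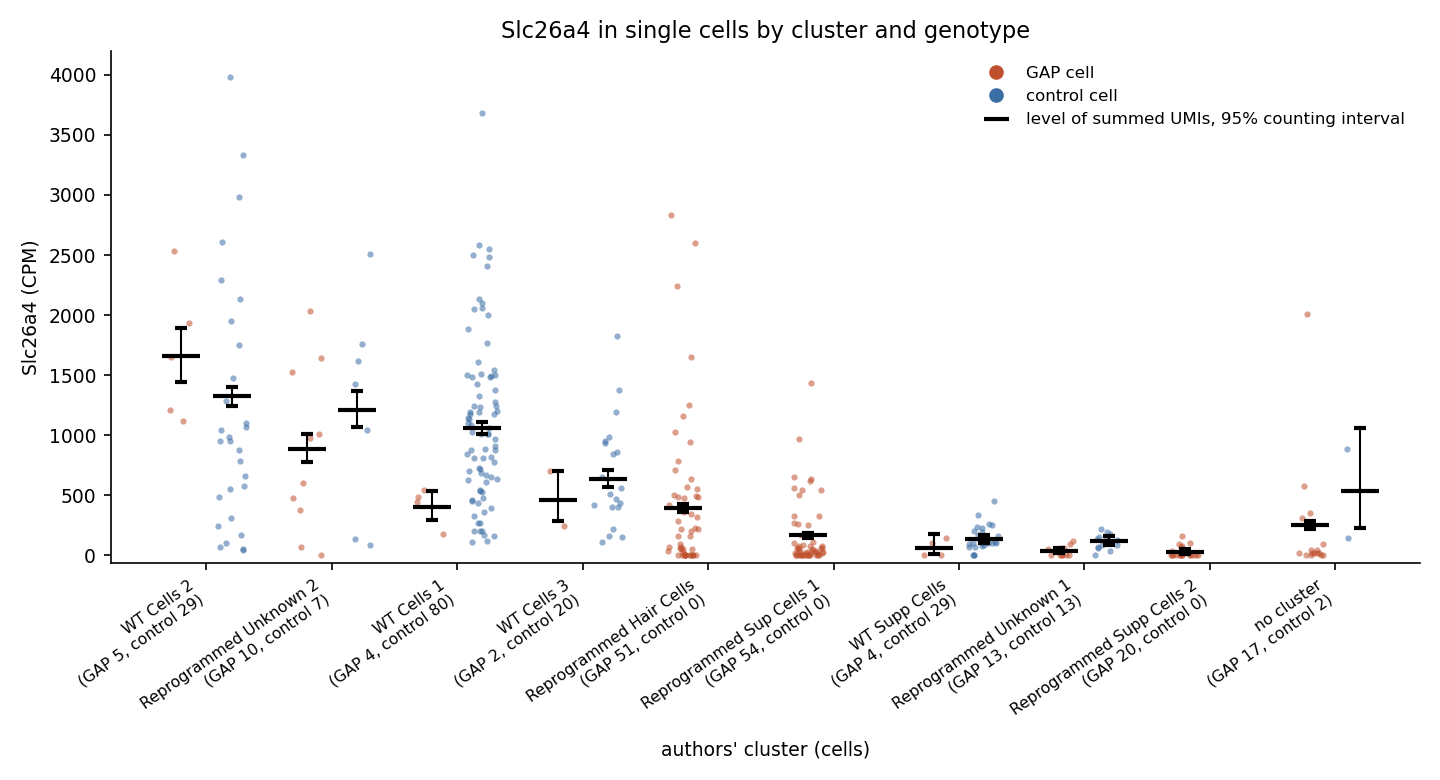
Slc26a4 (vertical axis, CPM) in each cell by the authors' cluster, with GAP cells to the left of control cells. Points are cells, and black marks are the level of summed UMIs with its 95% counting interval. Control cells of WT Cells 1 and WT Cells 2 reach 3679 and 3985 CPM, and 3 cells of Reprogrammed Hair Cells stand at 2241 to 2830 CPM.

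Slc26a4 was found in every cell of WT Cells 1, WT Cells 2 and WT Cells 3, 140 cells in all. In WT Cells 1 the lowest, median and highest cells were at 109.4, 989 and 3679 CPM, and in WT Cells 2 at 41.8, 1056 and 3985 CPM. The WT Supp Cells were a low and narrow group, at 0, 109.1 and 452 CPM, and 28 of 33 had a UMI at a median depth of 13693 UMIs. WT Supp Cells was 7.91-fold lower than WT Cells 1 (6.17 to 10.3). The level of 128 CPM was similar in its letters, at 142 CPM in A and 118 in B.

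The clusters named as reprogrammed differed among themselves. In Reprogrammed Hair Cells, cells ran over 0, 217 and 2830 CPM, and 10 of 51 lay above the median of all control cells. In Reprogrammed Sup Cells 1 they ran over 0, 48.4 and 1439 CPM, with 2 of 54 above it. In Reprogrammed Supp Cells 2 they ran over 0, 0 and 166 CPM, with 0 of 20 above it. Reprogrammed Hair Cells was 2.34-fold higher than Reprogrammed Sup Cells 1 (2.03 to 2.70), but the difference lay mostly in letter D: its D cells were at 519 CPM (473 to 569, 31 cells) and its C cells at 201 (166 to 241, 20 cells). Letter D cells of Reprogrammed Sup Cells 1 were at 195 CPM and letter C cells at 145. The 5 cells richest in Slc26a4 gave 42.4% of its UMIs in Reprogrammed Hair Cells.

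The WT clusters, which hold mostly control cells and some GAP cells, were set beside the reprogrammed clusters without control cells. The reprogrammed cluster was lower in most of these pairs. Reprogrammed Sup Cells 1 was 6.04-fold lower than WT Cells 1 (5.34 to 6.85). Reprogrammed Hair Cells was 2.58-fold lower than WT Cells 1 (2.35 to 2.84) and 3.48-fold lower than WT Cells 2 (3.15 to 3.85), but 3.07-fold higher than WT Supp Cells (2.37 to 4.03). Reprogrammed Supp Cells 2 was 4.87-fold lower than WT Supp Cells (2.41 to 11.1, 9 against 65 UMIs). Most cells of these pairs differ in genotype and letter as well as in cluster, and these cannot be told apart.

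The 15 GAP cells in the WT clusters were 5 of letter C and 10 of letter D, whereas the other clusters held 73 and 75. As a whole they were at 839 CPM, against 266 CPM in the 148 GAP cells of the other clusters, 3.16-fold higher (2.76 to 3.60). Within letter C the levels were 781 and 193 CPM, and within letter D 884 and 338 CPM, so both letters had the same direction. Against the 158 control cells of the WT clusters, at 939 CPM, their ratio was 0.893 (0.789 to 1.01), an interval that includes 1. By cluster the GAP cells went both ways. In WT Cells 2, 5 GAP cells were at 1656 CPM and 29 control cells at 1323, a ratio of 1.25 (1.08 to 1.45). In WT Cells 1, 4 GAP cells were at 402 CPM and 80 control cells at 1057, 2.63-fold lower in GAP (1.97 to 3.58). The 4 GAP cells of WT Cells 1 had 178, 447, 487 and 542 CPM, and all 4 lay inside the range of the control cells there.

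WT Cells 3 and WT Supp Cells held too few GAP cells for more than their values. The 2 GAP cells of WT Cells 3 had 248 and 699 CPM, against 108.8, 537 and 1827 CPM for the lowest, median and highest of its 20 control cells. The 4 GAP cells of WT Supp Cells had 0, 0, 104 and 145 CPM, 3 UMIs in all, against 62 UMIs over its 29 control cells, a ratio of 0.463 (0.0929 to 1.42).

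Both clusters that held the genotypes in similar numbers had less Slc26a4 in their GAP cells. In Reprogrammed Unknown 1, GAP cells were at 34.2 CPM (17.7 to 59.7, 12 UMIs in 13 cells) and control cells at 119.7 CPM (85.5 to 163, 40 UMIs in 13 cells), 3.50-fold lower in GAP (1.80 to 7.34). Those GAP cells ran up to 117 CPM and the control cells up to 224, and the groups overlapped. Letter C gave 11 of the 13 GAP cells and all 12 of their UMIs. In Reprogrammed Unknown 2, GAP cells were at 888 CPM (774 to 1015, 10 cells) and control cells at 1213 CPM (1067 to 1372, 7 cells), 1.37-fold lower in GAP (1.13 to 1.64). Its 10 GAP cells ran over 0, 789 and 2035 CPM and its 7 control cells over 84.5, 1428 and 2511 CPM. The 6 control cells of letter A gave 248 of the 251 control UMIs, and the control cell of letter B was the one at 84.5 CPM. The higher control level in this cluster thus rested on letter A.

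In Reprogrammed Unknown 2 the listed genes of the outer sulcus and the stria vascularis went both ways. The outer sulcus list summed to 3574 CPM there, against 6787 CPM in WT Cells 1. Epyc was at 242 CPM, against 2008 CPM in the other clusters, Kcnj10 at 182 against 571, Kcnj16 at 924 against 1233 and Lgr5 at 31.0 against 377 CPM, and Bmp4 and Aqp5 had 0 UMIs in its 17 cells. P2rx2 was higher, at 742 against 428 CPM. Aqp4 was at 53.2 CPM on 24 UMIs in 6 of the 17 cells, with an interval (34.07 to 79.1) that includes the 34.2 CPM of the other clusters. Anxa1, annexin A1, was at 880 CPM in its GAP cells and 1667 CPM in its control cells, and Dpp10, a dipeptidyl peptidase-like subunit of potassium channels, at 127 and 198 CPM. In the other clusters together the same genes were at 26.3 and 6.10 CPM. Atp1b2, a beta subunit of the sodium pump listed with marginal cells, was at 3667 CPM in GAP cells and 3203 CPM in control cells of this cluster, against 347 CPM in the other clusters. Lrp2, the endocytic receptor megalin, was at 2489 and 4179 CPM, against 136 CPM elsewhere. Kcne1, Kcnq1 and Esrrb, which define marginal cells, were uneven there, at 0, 28.7 and 0 CPM in its GAP cells and 9.66 (2 UMIs), 96.6 and 444 CPM in its control cells. Over the whole cluster they were at 4.43, 59.8 and 204 CPM, against 11.9, 59.4 and 6.47 CPM in the other clusters. Its 92 Esrrb UMIs came from 3 cells. The cluster keeps the authors' name here, and 6 of its 7 control cells came from letter A.

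Most GAP cells with a Slc26a4 UMI also had one of Atoh1 and of Pou4f3, as did most GAP cells without one of Slc26a4. Gfi1 was found in fewer cells of either kind. At 8000 UMIs, 71 of 180 GAP cells had a UMI of both Slc26a4 and Atoh1 (39.4%, 32.3 to 46.99%), 22 had Slc26a4 without Atoh1, 75 had Atoh1 without Slc26a4 and 12 had neither. Cells with both Slc26a4 and Pou4f3 were 66, with Slc26a4 alone of these 27, with Pou4f3 alone 65 and with neither 22. For Slc26a4 and Gfi1 the counts were 44, 49, 55 and 32. In Reprogrammed Hair Cells, 28 of 51 cells had both Slc26a4 and Atoh1. UMIs of the inserted and of the native copies of these genes cannot be told apart here.

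The level of Slc26a4 followed the level of the allele's genes weakly. Over the 180 GAP cells Spearman's rho with Slc26a4 was -0.10 for Atoh1, -0.19 for Gfi1 and -0.06 for Pou4f3, and the signs were negative in letters C and D alike, from -0.21 to -0.0020. Within Reprogrammed Hair Cells (51 cells) the values were -0.19, -0.24 and -0.13, and within Reprogrammed Sup Cells 1 (54 cells) -0.02, -0.14 and -0.01. Points share library and depth, and values this small are no finding.

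The cells of Reprogrammed Hair Cells with most Slc26a4 also held hair cell genes, at levels on both sides of the cluster's median. The 5 cells with most Slc26a4 had 2830, 2597, 2241, 1650.2 and 1249.9 CPM of it. Their Atoh1 levels were 424, 282, 345, 955 and 875 CPM, against a median of 728 over the 51 cells. For 13 other hair cell genes summed, they ranked 23, 42, 33, 50 and 15 of 51 from the top, with 2865, 1129, 1724, 434 and 4562 CPM, against a median of 2369. These 5 cells were chosen by their Slc26a4 level, and 4 of them are from letter D.

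**Figure D3:**
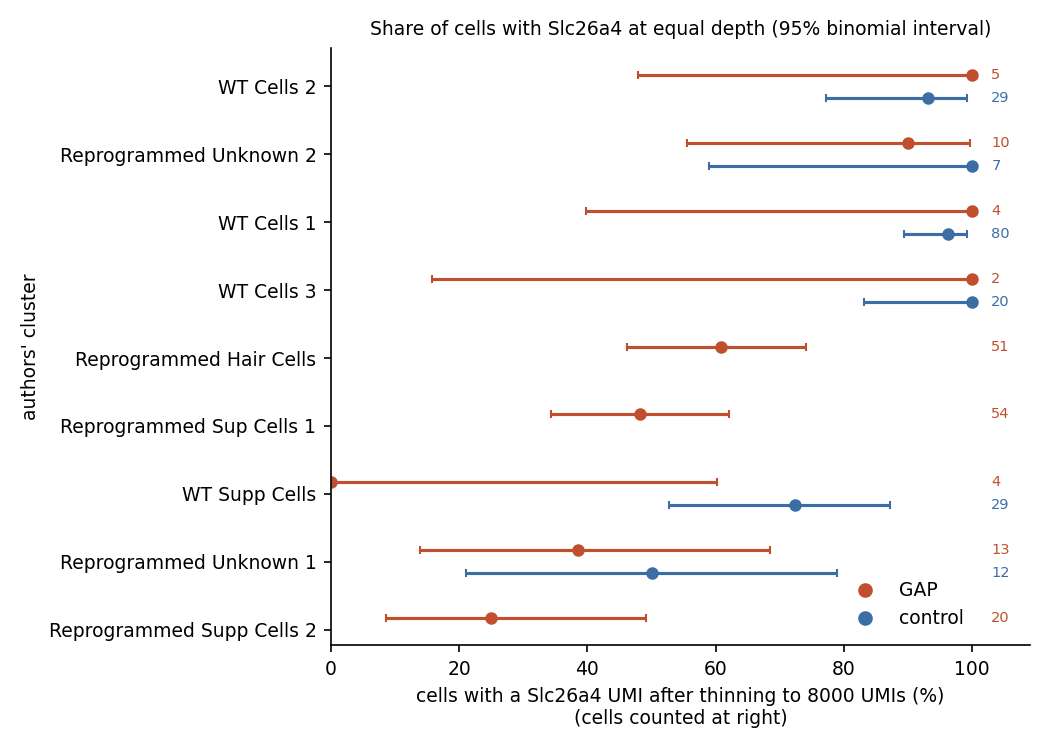
Share of cells with a Slc26a4 UMI after each cell was thinned to 8000 UMIs (horizontal axis, %), by the authors' cluster, with GAP above control. Bars are Clopper-Pearson 95% intervals and the numbers at right count cells. Control cells of WT Cells 1 and WT Cells 2 stand at 96.2% and 93.1%, and the GAP cells of Reprogrammed Hair Cells, Reprogrammed Sup Cells 1 and Reprogrammed Supp Cells 2 at 60.8%, 48.1% and 25%.

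At equal depth the shares kept the order of the levels in outline. In Reprogrammed Hair Cells 60.8% of cells had a UMI (46.1 to 74.2%), in Reprogrammed Sup Cells 1 48.1% (34.3 to 62.2%) and in Reprogrammed Supp Cells 2 25% (8.66 to 49.1%). The share was 63.6% in WT Supp Cells (45.1 to 79.6%), although its level was below that of Reprogrammed Sup Cells 1 and of Reprogrammed Hair Cells, so WT Supp Cells held few UMIs in many cells. The variance of thinned counts was 1.19 times the mean there, near counting error, against 10.3 times in Reprogrammed Hair Cells and 3.54 times in Reprogrammed Sup Cells 1. In WT Cells 3 all 22 cells had a UMI at this depth (84.6 to 100%).

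Genes whose levels followed Slc26a4 were sought among 8699 genes with at least 10 CPM and a UMI in at least 18 of the 180 control cells, by Spearman's rho of per-cell CPM. A rho of 0.3 or more was reached by 92 genes (1.06% of them) and a rho of -0.3 or less by 62 (0.713%). The 25 highest among named genes with the same sign in letters A and B ran over rho of 0.40 to 0.54. The genes share each cell's library and depth, and after thinning the 25 kept rho of 0.31 to 0.49.

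The closest gene was Timp2, an inhibitor of matrix metalloproteinases, with rho of 0.54 over the control cells (0.55 in A and 0.50 in B). Inf2, a formin that builds and severs actin filaments, had 0.53 (0.48 in A and 0.53 in B). Lect1, now named Cnmd, encodes chondromodulin, a secreted inhibitor of vessel growth, and had 0.52 (0.56 in A and 0.42 in B). Pgm5, a phosphoglucomutase-like protein of cell junctions, had 0.50, Arl4c, a small GTPase, 0.49, and Hhatl, a relative of the Hedgehog acyltransferase, 0.48. Map1b, which binds microtubules, and Rgma, a coreceptor for BMP ligands, had 0.47 each.

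Other genes of the 25 fall into groups by role. Fxyd3, of the FXYD family of ion transport regulators, had rho of 0.42. Of signals and receptors at the cell surface, Efnb2, ephrin-B2, had 0.44, Epha7, an Eph receptor, 0.41, and Plxdc2, a transmembrane receptor, 0.46. Nfix, of the nuclear factor I family, was the DNA-binding factor among them, with 0.45. Tns1, tensin of focal adhesions, had 0.42, Fam107a, an actin-associated protein, 0.45, and Crip2, a LIM domain protein, 0.44. Enzymes among them were Man2a2, a mannosidase of the Golgi (0.46), Padi2, which converts arginine to citrulline (0.45), and Fads6, of the fatty acid desaturase family (0.40). Tmem252, Hid1, Mien1, Mob3b and Ndrg2 had 0.41 to 0.45.

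GAP cells, which took no part in the choice, gave rho of the same sign for the 25, from 0.13 to 0.43 with a median of 0.30, against a median of 0.45 in control cells. Lect1 (0.43), Padi2 (0.41), Map1b (0.40), Tns1 (0.40) and Plxdc2 (0.40) held most in GAP cells, while Mien1 (0.13), Fxyd3 (0.14) and Efnb2 (0.17) held least. All 25 were positive in letter C and in letter D taken alone, with medians of 0.27 and 0.28. Over all the genes the median rho was near 0 in GAP cells, and 268 of 8698 reached 0.2, against 21 of the 25.

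**Figure D4:**
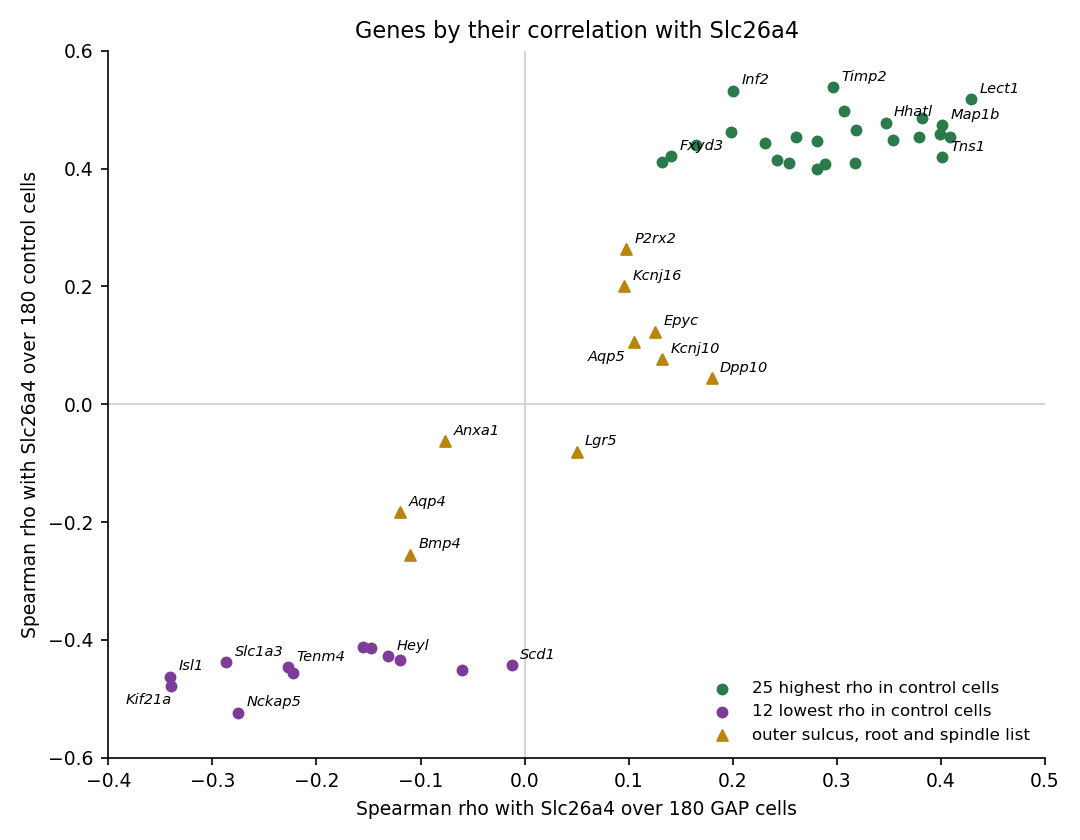
Spearman's rho of genes with Slc26a4 over the 180 GAP cells (horizontal axis) and over the 180 control cells (vertical axis). Circles are the 25 genes with the highest and the 12 with the lowest rho in control cells, and triangles are the 10 genes of the outer sulcus, root and spindle cell list, which lie between -0.26 and 0.26 in control cells.

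Much of this likeness lay between clusters rather than within them. With every cell's log2 value set against the mean of its cluster, the 25 had Pearson's r of -0.01 to 0.30 in control cells (median 0.16). Without this centring, Pearson's r of log2 values ran from 0.32 (Fads6) to 0.51 (Timp2) for the 25. After centring, 7 of them were still among the 25 highest. Among the 80 control cells of WT Cells 1, the largest group, their median Spearman's rho was 0.14. Inf2 (0.42), Man2a2 (0.37), Mien1 (0.35) and Efnb2 (0.31) reached 0.3 there, while Timp2 had 0.24, Pgm5 0.02 and Lect1 -0.02. In the 29 control cells of WT Cells 2, where 883 of 8676 genes reached 0.3, Lect1 had 0.69, Efnb2 and Plxdc2 0.68, Map1b 0.64 and Timp2 0.61. In Reprogrammed Hair Cells (51 cells), where 199 of 8660 genes reached 0.3, Fam107a had 0.54, Padi2 0.52, Pgm5 0.45 and Lect1 0.41, and 20 of the 25 were positive. In Reprogrammed Sup Cells 1 (54 cells), where 290 of 8669 genes reached 0.3, Nfix had 0.53, and Inf2 and Crip2 0.50, and 24 of the 25 were positive. In the 20 control cells of WT Cells 3, 24 were positive (median 0.31), where 868 of 8575 genes reached 0.3. The likeness was not seen in the 2 clusters of low Slc26a4 named for supporting cells. In the 29 control cells of WT Supp Cells 14 were positive and 11 negative (median 0.02). In Reprogrammed Supp Cells 2 (20 cells) 12 were positive and 12 negative (median 0).

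The 25 genes were mostly lower in GAP cells, as Slc26a4 was. Of 25 tested, 13 were at least 2-fold lower with the same direction in all 4 pairings of letters, where 6.12% of 10152 genes were, and 0 were at least 2-fold higher, where 12.4% of genes were. Their median log2 ratio, GAP over control, was -1.10, against 0.10 over all genes tested. The 25 had to reach 10 CPM in control cells, whereas genes tested could reach it in either genotype. All genes tested thus include genes high in GAP cells alone, which could not enter the 25. The count of 0 higher and the median were partly set by this choice, and the shares are not a like background. Tns1 was at 289 CPM in GAP cells and 1421 in control cells, Hhatl at 143 and 585 CPM, Map1b at 1592 and 5617 CPM, Pgm5 at 151 and 527 CPM and Lect1 at 531 and 1254 CPM. Of the 25, 3 were higher in GAP cells: Mob3b at 214 and 124 CPM, Ndrg2 at 1143 and 866 CPM, and Crip2 at 241 and 229 CPM.

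The 12 genes that ran opposite to Slc26a4 had rho of -0.52 to -0.41 in control cells. Nckap5 had -0.52, Kif21a, a kinesin, -0.48, and Isl1, a LIM homeodomain factor, -0.46. Slc1a3, the glutamate transporter GLAST, known from the supporting cells around inner hair cells, had -0.44. Heyl, a target of Notch signalling, had -0.43, and Scd1, which desaturates fatty acids, -0.44. Inpp5j, Trim2, Tenm4, Serpine2, Prdm12 and Far1 had -0.46 to -0.41. All 12 were negative in GAP cells too, from -0.34 to -0.01. Within control cells of WT Cells 1 the 12 ran over -0.35 to 0.03, with Tenm4 lowest.

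These genes, chosen for low rho in the same control cells, were higher in WT Supp Cells than in WT Cells 1. Control cells of WT Supp Cells had 135 CPM of Slc26a4 (104 to 173). Reprogrammed Unknown 1 had as little in its control cells, at 119.7 CPM (85.5 to 163), but held each of these genes lower than WT Supp Cells. Slc1a3 and Far1, for example, were each at 90.5 CPM in Reprogrammed Unknown 1. Slc1a3 was at 1873 CPM in WT Supp Cells and 1521 CPM in Reprogrammed Supp Cells 2, against 83.1 CPM in WT Cells 1. Far1 was at 1579 CPM in WT Supp Cells, against 123 in WT Cells 1, and Prdm12 at 343 against 3.85 CPM. Kif21a was at 977 CPM in Reprogrammed Supp Cells 2 and 712 in WT Supp Cells, against 28.6 in WT Cells 1. Heyl was highest in Reprogrammed Supp Cells 2, at 684 CPM, with 641 in Reprogrammed Sup Cells 1 and 497 in Reprogrammed Hair Cells, against 42.4 CPM in WT Cells 1 and 247 in WT Supp Cells.

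**Figure D5:**
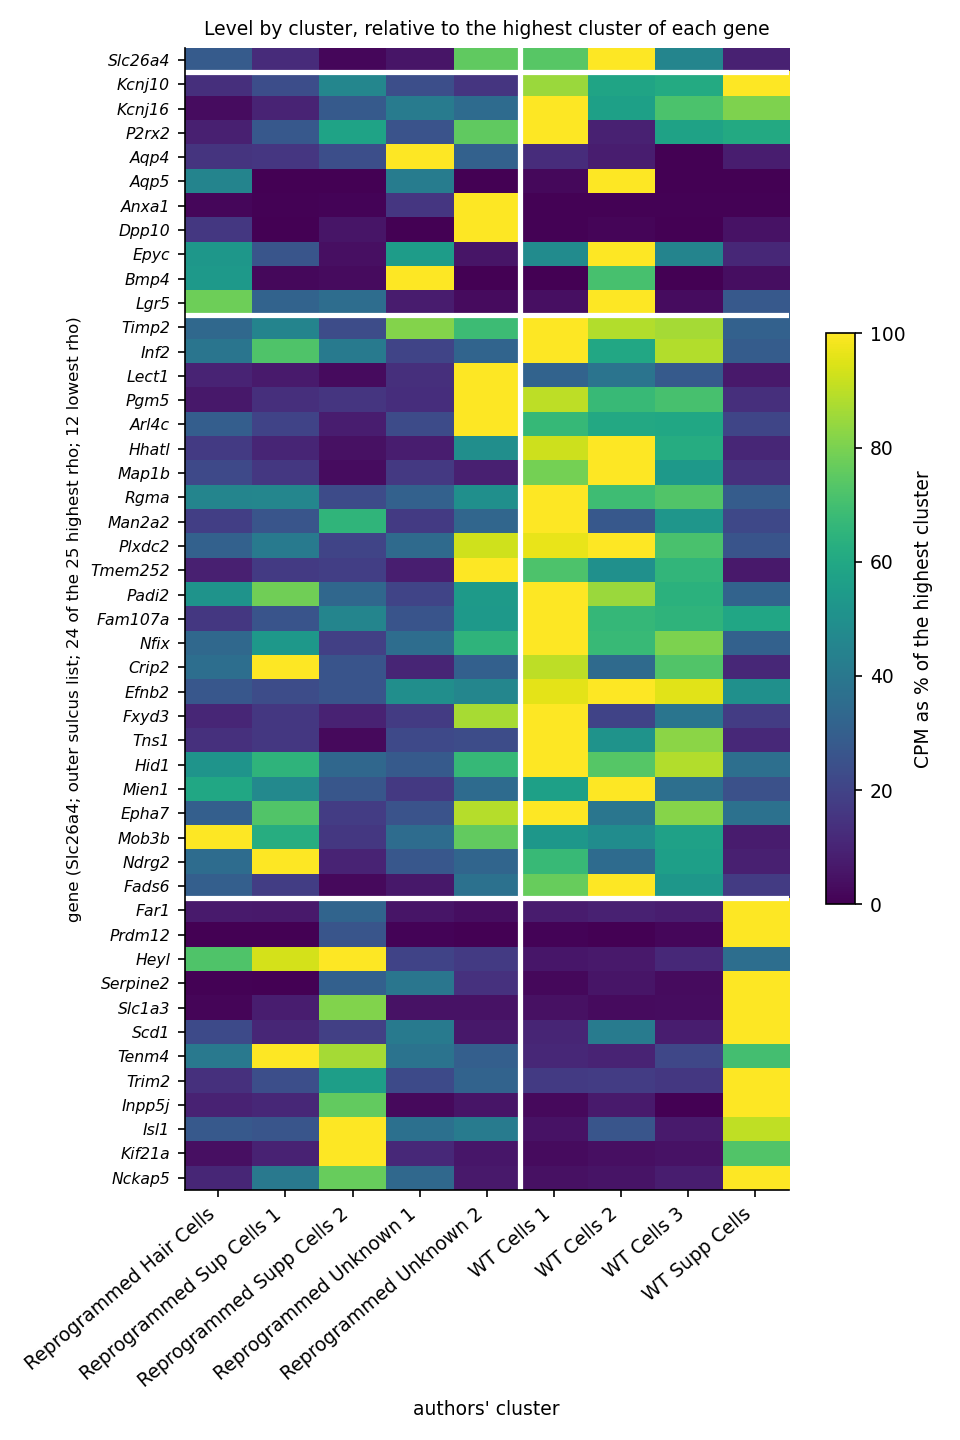
Level of each gene by the authors' cluster as a share of its highest cluster (colour, % of CPM), with reprogrammed clusters left of WT clusters. Rows are Slc26a4, the outer sulcus, root and spindle cell list, 24 of the 25 genes of highest and the 12 of lowest rho with Slc26a4 in control cells. Slc26a4 and most of the 25 are high in WT Cells 1 to 3 and low in WT Supp Cells, where 8 of the 12 are highest.

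Over the 9 clusters as points, 10 genes of 11401 followed Slc26a4 most closely, by Pearson's r of log2(CPM + 1). Itpr1, a calcium release channel of the endoplasmic reticulum, had r of 0.97, at 917 CPM in Reprogrammed Unknown 2, 900.3 in WT Cells 2, 907 in WT Cells 1, 331 in Reprogrammed Supp Cells 2 and 611 in Reprogrammed Hair Cells. Fads6 had r of 0.97, Mycbpap and Hhatl 0.96 and 0.95, Aass, an enzyme of lysine breakdown, 0.95, and Arl4c 0.95. Gtf2b, a general transcription factor, Srpr, a receptor of the signal recognition particle, Arrdc2 and Cyth1 had 0.93 to 0.94. Of these 10, Fads6, Hhatl and Arl4c were also among the 25 of the control cells. Gtf2b, Mycbpap and Arrdc2 had rho of 0.05, 0.04 and 0.0056 over control cells, so their likeness lay between clusters. The 9 points share clusters that Slc26a4 may have helped to form.

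The list of outer sulcus, root and spindle cell genes, 10 in all without Slc26a4, held members on both sides of 0 in rho with Slc26a4. Over the 7 members with enough UMIs in control cells the median rho was 0.08, against 0.01 over all genes, and 0 of the 7 reached 0.3, where 1.06% of all genes did. P2rx2, an ATP-gated channel of the sulcus epithelium, had 0.26 (0.11 in A and 0.42 in B), Kcnj16, a potassium channel subunit that pairs with Kcnj10, 0.20 (0.04 and 0.35) and Kcnj10 0.08 (-0.10 and 0.30). Epyc, epiphycan, a proteoglycan, had 0.12 (0.23 in A and -0.06 in B). For these genes letters A and B differed, with higher values in B for the channels. Aqp4, a water channel of this epithelium, had -0.18, Lgr5 had -0.08 and Anxa1 -0.06. Bmp4, Dpp10 and Aqp5, with a UMI in 12 to 14 control cells, had -0.26, 0.04 and 0.11. The summed level of the list had rho of 0.25 over control cells, 0.25 in A and 0.20 in B, and -0.06 within WT Cells 1, and 0.23 over GAP cells, 0.04 in C and 0.39 in D.

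By cluster these genes parted from Slc26a4 in different ways. Kcnj16 and P2rx2 were highest in WT Cells 1, at 2644 and 981 CPM, where Slc26a4 was high, and P2rx2 was at 89.4 CPM in WT Cells 2, where Slc26a4 was highest. Kcnj10 was highest in WT Supp Cells, at 1189.8 CPM, where Slc26a4 was low. Epyc and Lgr5 were highest in WT Cells 2, at 4320 and 998 CPM, and Aqp4 and Bmp4 in Reprogrammed Unknown 1, at 171 and 107 CPM. Over the 9 clusters r with Slc26a4 ran from -0.39 for Aqp4 to 0.46 for Epyc. No cluster with Slc26a4 held all of these genes at their highest, and no cluster is given the outer sulcus name here.

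Per kilobase of exon, Slc26a4 was at 96.4 CPM in GAP cells and 284 CPM in control cells, beside 52.01 and 159 CPM for Kcnj10, 140.1 and 503 CPM for Kcnj16, 113 and 238 CPM for P2rx2 and 517 and 977 CPM for Epyc. Between genotypes 3 of 9 tested members of the list were at least 2-fold lower in GAP, where 6.12% of all genes were. At least 2-fold higher were 0 of the 9, where 12.4% of all genes were. Kcnj16 was at 551 CPM in GAP cells and 1979 in control cells, 3.59-fold lower (3.44 to 3.74), Kcnj10 at 281 and 861 CPM, 3.06-fold lower (2.88 to 3.25), and P2rx2 at 289.8 and 612 CPM, 2.11-fold lower (1.98 to 2.25). Epyc was at 1323 CPM in GAP cells and 2503 in control cells, and Lgr5, a Wnt coreceptor, at 435 and 257 CPM. In letters C and D, Kcnj10 was at 278 and 284 CPM and Kcnj16 at 557 and 544 CPM, so the difference between the GAP letters seen for Slc26a4 was not seen for these channels. Other members of the list did differ: Lgr5 at 297 and 601 CPM and Epyc at 1117 and 1571 CPM were higher in D. Anxa1 at 119 and 21.8 CPM and Bmp4 at 47.8 and 18.9 CPM were lower in D. The median log2 ratio of the list was -0.38, against 0.10 over all genes tested.

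Marker lists of other cell types were read beside Slc26a4, since markers could move with it. The summed Hensen and Claudius cell list, at 1557 CPM in GAP cells and 1422 in control cells, had rho of -0.29 with Slc26a4 over control cells. Its members did not share this: 3 of 6 were positive and their median rho was 0.03. Gata3, a transcription factor that made up 689.5 of the 1422 CPM, had -0.39 and was the 1 member at -0.3 or less. The general supporting cell list, at 11952 and 11226 CPM, had -0.25, and its members Sox9 and Jag1 stood apart at 0.32 and -0.37. The pillar and Deiters cell list had -0.02, with Cntn1 at 0.38 and Lgr6 at -0.32. The inner sulcus, interdental and tectorial membrane list had 0.17 (-0.09 in A and 0.43 in B), and its member Ceacam16, at 53.5 CPM in GAP cells and 834 in control cells, had 0.26 (0.07 in A and 0.44 in B). The lists of marginal, intermediate and basal cells of the stria had -0.06, -0.19 and 0.04. Their part in the level of Slc26a4 was not tested.

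Markers of cells other than epithelium were low or differed by genotype or letter, and their part in the level of Slc26a4 was not tested. Fibroblast and fibrocyte genes summed to 156 CPM in GAP cells and 361 CPM in control cells, of which Lum made up 98.6 and 321 CPM, glial genes to 91.7 and 112 CPM, endothelial and pericyte genes to 142 and 24.99 CPM, leukocyte genes to 7.08 and 13.2 CPM, neuronal genes to 17.7 and 0.750 CPM, and erythroid genes to 97.46 and 0.250 CPM. The erythroid sum lay in letter C, at 178 CPM, against 0.410 CPM in D, 0.504 in A and 0 in B. The erythroid genes reached 1173 CPM in Reprogrammed Supp Cells 2, the cluster with least Slc26a4. Hair cell genes, among them the 3 of the GAP allele, summed to 4203 CPM in GAP cells and 266 CPM in control cells. Without those 3 the sums were 2611 and 265 CPM, and 13 of 13 were higher. Of the whole list, 16 of 16 were at least 2-fold higher in GAP, where 12.4% of all genes were, and their sum had rho of -0.06 with Slc26a4 over GAP cells. Of the genes that mark pendrin-bearing ionocytes of the endolymphatic sac and kidney, Foxi1, Slc4a9 and Insrr had 0 UMIs in both genotypes. Atp6v1b1 had 2 UMIs in GAP cells and 2 in control cells, and the list summed to 8.39 CPM in GAP cells and 0.4998 CPM in control cells.

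Slc26a4 was the main member of its family in these cells. Of the 10 other Slc26 genes, Slc26a2, a sulfate transporter, was at 129 CPM in GAP cells and 88.97 in control cells, and Slc26a11 at 8.76 and 10.997 CPM. Per kilobase of exon, Slc26a2 was at 10.5 CPM in GAP cells and 7.19 CPM in control cells, against 96.4 and 284 CPM for Slc26a4. Slc26a5, which encodes prestin, the motor of outer hair cells, had 4 UMIs in GAP cells and 0 in control cells. Slc26a7 had 26 and 0 UMIs, Slc26a9 12 and 0, Slc26a6 7 and 3, Slc26a8 3 and 7, Slc26a3 0 and 1, and Slc26a10 0 and 2, while Slc26a1 had 0 in both. Of the 2 that reached 10 CPM, 0 were 2-fold higher or lower, where 12.4% and 6.12% of all genes were. With 2 genes this count cannot be set apart from those shares.

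Genes tied to an enlarged vestibular aqueduct in people or mice besides Slc26a4 showed no common direction. Kcnj10 was lower in GAP, as above. Epha2, an Eph receptor linked to pendrin in people, was at 45.1 CPM in GAP cells and 15.5 in control cells, 2.91-fold higher (2.19 to 3.91). No UMI of Foxi1, the forkhead activator of Slc26a4 in the endolymphatic sac, was found in either genotype. Gata3 was at 619 and 689.5 CPM and Eya1 at 541 and 409 CPM, and their rho with Slc26a4 in control cells was -0.39 and -0.10.

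Partners in moving acid, base and salt were examined as lists. Of 16 carbonic anhydrases, which supply bicarbonate, 6 were tested, 3 were at least 2-fold lower in GAP, where 6.12% of all genes were, and 1 was higher, where 12.4% were: Car12 was at 103.05 CPM in GAP cells and 346 in control cells, Car14 at 80.5 and 222, Car5b at 9.13 and 22.7, and Car11 at 30.4 and 9.25 CPM. Car12 had rho of -0.01 with Slc26a4 over control cells and Car14 -0.19. Of 12 tested bicarbonate and sodium-proton transporters 0 were higher, where 12.4% of all genes were, and 2 were lower, where 6.12% were. The lower ones were Slc9a4 at 57.02 CPM in GAP cells and 305 in control cells, 5.34-fold lower (4.71 to 6.08), and Slc4a8 at 27.6 and 86.2 CPM. Slc9a4, a sodium-proton exchanger, had rho of 0.21 with Slc26a4 in control cells and 0.24 in GAP cells. Among 16 tested subunits of the V-ATPase, the proton pump, 0 were 2-fold lower or higher, against 6.12% and 12.4% of all genes, and their median log2 ratio was 0.03, against 0.10.

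The list of sodium and potassium absorption, the task of the outer sulcus, had the highest summed rho of the lists, at 0.36 over control cells (0.25 in A and 0.46 in B), 0.27 over GAP cells, 0.56 within Reprogrammed Sup Cells 1, 0.03 within Reprogrammed Hair Cells and 0.20 within WT Cells 1. Its members did not share this: their median rho over control cells was 0.0013, 7 of 13 were positive and 1 reached 0.3. It holds Kcnj16 and P2rx2, so it is not separate from the genes above. Of its 14 tested members 4 were at least 2-fold lower in GAP, where 6.12% of all genes were, and 2 higher, where 12.4% were. Besides Kcnj10, Kcnj16 and P2rx2 the fourth was Sgk1, a kinase that stimulates sodium uptake, at 79.6 CPM in GAP cells and 350.4 in control cells. The higher ones were Kcnq1 at 84.04 and 32.5 CPM and Scnn1g, a subunit of the epithelial sodium channel, at 18.4 and 5.75 CPM. Chloride channels and transporters ran the other way as a sum, with rho of -0.42 over control cells (-0.34 in A and -0.47 in B) and 0.01 within WT Cells 1. Their members did not share this: the median rho over control cells was -0.03 and 5 of 13 were positive. The 1 member at -0.3 or less was Slc12a7, a potassium-chloride cotransporter, with -0.39. Of 14 tested members 2 were at least 2-fold lower in GAP, where 6.12% of all genes were, and 2 higher, where 12.4% were. Slc12a7 was at 269.6 CPM in GAP cells and 662 in control cells, and Ano6, an ion channel and scramblase with rho of 0.29, at 176 and 383 CPM.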

How the data were processed

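Exon counts per gene and cell are UMI counts, used as the authors deposited them and not normalized, and a second deposited table gives each cell's cluster. STAR, HTSeq and mm10 are named by the submitters' processing notes, but for their versions, annotation release and strand setting the entry is "not given in the sources used here". Columns were matched to samples by title, none held the same counts as another, and no doublet caller was run on these singly sorted cells. Of the matrix IDs, 99.2% matched the GENCODE annotation that gave exon lengths.

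Counts were summed per set of cells and scaled to CPM. Levels have exact Poisson, ratios exact conditional-binomial and shares Clopper-Pearson 95% intervals. Log2 ratios add 1 CPM. A gene was compared (called tested in the text, with no p) at 10 CPM or more in a genotype, and counted as higher or lower at 2-fold with the same direction in all 4 letter pairings. Cells were thinned to 8000 UMIs, which left out 0 GAP and 3 control cells.

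Genes were named by rule: Slc26a4, the allele's genes, members of the outer sulcus, Slc26 and vestibular aqueduct lists, the 5 members with most UMIs and those at 0 in other lists, the 25 highest and 12 lowest rho with the same sign in A and B, and the 10 closest over clusters. Car5b, Slc4a8, Scnn1g, Sgk1, Jag1, Kcne1 and Esrrb fall outside it and were named after their values were seen. Single-gene results that the rule would name for 2 genes are not reported here. The gene, the 23 lists and the rules were chosen with earlier results of these data known. Ratios and intervals were tested on simulated counts that held counting error only. That run checked the arithmetic and did not test the intervals against the larger spread over cells described above. A planned split of GAP cells by Atoh1 was not made, since it would group cells by a measured value. Alternatives are given in the closing section. Tools were Python 3.11.15, numpy 2.4.6, pandas 2.3.3, scipy 1.17.1, matplotlib 3.10.9, and R 4.3.3 with edgeR 4.0.16, used for scaling factors of an alternative.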

Additional observations from a re-analysis of the deposited data

How the results depend on the processing

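The log2 ratio of Slc26a4, GAP over control, was -1.56 and stayed negative under every alternative run. It was -1.11 without letter C, -2.07 without letter D, -1.41 as a mean of per-cell CPM or thinned to 8000 UMIs, and -1.69 without the cells of Reprogrammed Unknown 1 and 2, an alternative chosen after seeing the data. Shares of cells with a UMI were 34.4% in GAP and 77.8% in control cells at 4000 UMIs, 70% and 97.8% without thinning, and 33.3% and 75.7% for 2 UMIs at 8000. Levels by cluster (CPM) moved with the letter left out: Reprogrammed Sup Cells 1 was at 194.7 without C and 144.5 without D, Reprogrammed Hair Cells at 519 and 201, Reprogrammed Unknown 2 at 1165 without D and 786 without A, Reprogrammed Unknown 1 at 52.6 without B, WT Cells 1 at 918 without B, and WT Cells 2 at 1284 without A and 1506 without B. Without its richest cell a cluster was at 148 (Reprogrammed Sup Cells 1), 345 (Reprogrammed Hair Cells), 1259 (WT Cells 2) and 924 (Reprogrammed Unknown 2). As a mean over cells and thinned, Reprogrammed Hair Cells was at 448 and 463, WT Cells 1 at 1065 and 1074, and WT Cells 2 at 1274 and 1246. Of the 25 genes with the highest rho, 16 were shared with Pearson's r, 14 with letter A alone, 14 with letter B alone, and, as alternatives chosen after seeing the data, 7 with values centred on cluster means and 8 with GAP cells. The cause of these shifts was not tested. With a pseudocount of 10 CPM, 805 genes were higher and 388 lower in GAP, against 1255 and 621. With no filter on level they were 2356 and 981, and among 5097 genes at 50 CPM or more 477 and 341. No paired analysis was possible because the genotypes share no replicate numbers. The split by Atoh1 was not run.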
